A study of Homo sapiens with 18 samples.

Results

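In A673 cells, an established Ewing sarcoma line, 229 of the 6408 regions that carried monoubiquitinated histone H2A (H2Aub1) in both replicates touched a peak of the fusion protein EWSR1-FLI1. These 229 regions are the subject here. They were chosen by measured peak positions. H2Aub1 peaks of replicates 1 and 2 that shared at least 1 bp were joined, joined regions found in both lists were kept, and those sharing at least 1 bp with an EWSR1-FLI1 peak were selected. Their number, 3.57% of the H2Aub1 regions, is therefore a description. On the other side of the contact stood 189 of the 2145 EWSR1-FLI1 peaks, since some peaks touched more than 1 region.

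EWSR1-FLI1 joins part of EWSR1 to FLI1, an ETS transcription factor. The fusion binds ETS sites and GGAA repeats and is the driver of Ewing sarcoma, where it opens chromatin at repeats and activates distal enhancers. RING1B is the catalytic ubiquitin ligase of Polycomb repressive complex 1. Together with a PCGF partner it places a single ubiquitin on H2A, a mark associated with repressed developmental genes and held in broad domains around CpG-rich promoters. An EWSR1-FLI1 peak on such a domain thus brings together a factor mostly studied as an activator and a mark mostly studied as repressive.

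The lists used came from unperturbed A673 cells, with no treatment named. The 5 peak lists came from chromatin immunoprecipitation sequencing of H2Aub1 (2 replicates, antibody Cell Signalling D27C4), RING1B (2 replicates, MBL D139-3) and EWSR1-FLI1 (1 sample, Abcam ab15289). The labels do not say whether replicates were separate cultures. The series has 18 samples, and the inputs, BMI1, CBX7 and the shCTRL and shRING1B samples were not analysed here. The lists held 26423 and 10268 H2Aub1 peaks, 2573 and 3945 RING1B peaks and 2145 EWSR1-FLI1 peaks. Read depth is unknown.

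EWSR1-FLI1 mostly sat at the border of H2Aub1 or across a narrow break within it, and less often within an unbroken region. Of the 189 peaks, 110 lay at an edge, partly in 1 region and past one of its ends (58.2%, 95% Wilson interval 51.1 to 65.0%). Another 44 lay between 2 regions and touched both (23.3%, 17.8 to 29.8%), and 35 lay wholly inside 1 region (18.5%, 13.6 to 24.7%). None of the 189 reached past both ends of its region (0 of 189, which allows up to 1.99%). Of the 229 regions, 221 were wider than the EWSR1-FLI1 peak that touched them. A peak can still reach past the end of a wider region, and the edge share expected from widths alone was not tested. The median region was 2936 bp wide and the median touching peak 1012 bp. Wilson intervals here and elsewhere cover counting error over peaks or regions, which are not fully independent where they are neighbours.

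Taken over all 189 peaks, H2Aub1 was more frequent 1 kb to either side of the EWSR1-FLI1 centre than at the centre. At the centre itself it was missing more often than not. Peaks were not oriented, so contacts on a single side, left or right, add to both sides of this average. At the 110 edge peaks the shares 1 kb before and after the centre were 70.9% and 71.8% in replicate 1. They were 50.9% and 43.6% in replicate 2. Exactly at the centre, 70 of 189 peaks (37.0%) had an H2Aub1 peak of replicate 1 and 40 of 189 (21.2%) one of replicate 2. At 1 kb from the centre, averaged over both sides, the shares were 82.3% and 61.4%. They fell to 38.9% and 21.2% at 5 kb. The selection asked for H2Aub1 somewhere under the EWSR1-FLI1 peak, so the high shares near the peak are set by the rule. The rule does not ask for the centre to be covered, and a peak that touches H2Aub1 only by an end has an uncovered centre. How much of the low share at the centre follows from such contacts was not tested. The centre was covered in both replicates for 27 peaks, in replicate 1 only for 43, in replicate 2 only for 13 and in neither for 106.

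**Figure D1:**
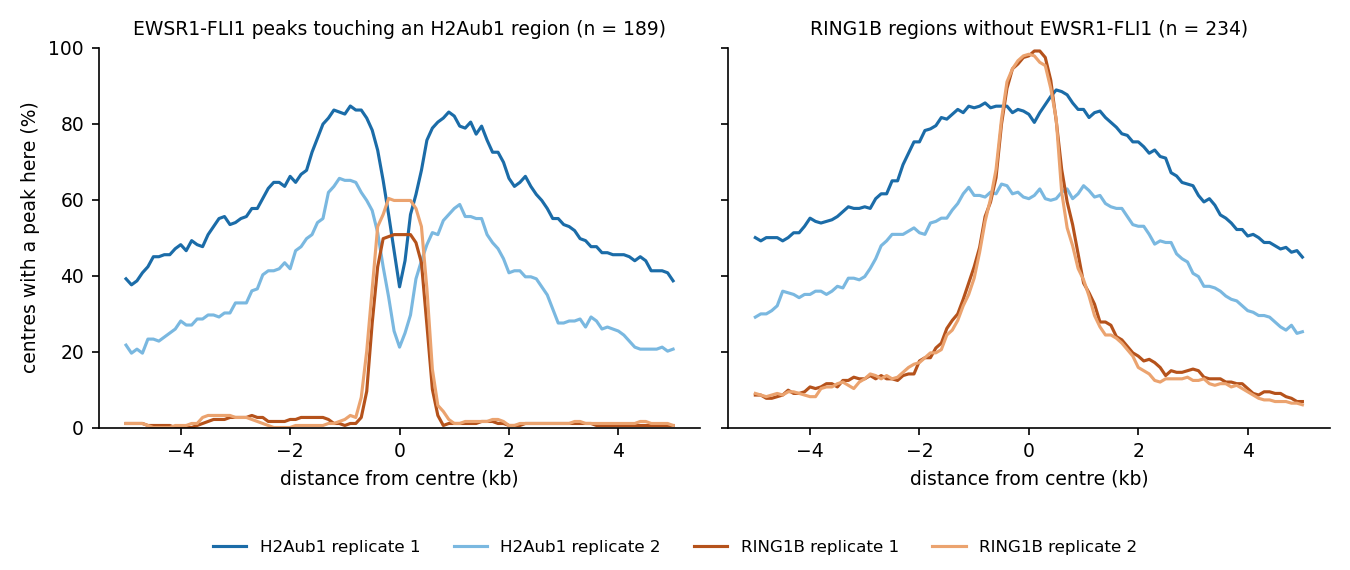
Share of centres (y axis, percent) with a peak of each list at a given distance (x axis, kb, in steps of 100 bp), for the 189 EWSR1-FLI1 peaks that touch an H2Aub1 region (left) and for the 234 RING1B regions with H2Aub1 and without EWSR1-FLI1 (right). On the left both H2Aub1 lines fall to 37.0% and 21.2% at the centre while RING1B peaks cover 50.8% and 59.8% there, and on the right H2Aub1 stays at 82.5% and 60.3%.

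RING1B regions that carried H2Aub1 without EWSR1-FLI1 served as a second set of binding sites against the same mark, and they sat differently. Of 234 such regions, 118 lay wholly inside an H2Aub1 region (50.4%, 44.1 to 56.8%), 87 at an edge (37.2%), 22 between 2 regions (9.40%) and 7 spanned their region (2.99%). The inside share was thus 31.9 percentage points lower for EWSR1-FLI1 peaks (difference -31.9, Newcombe 95% interval -39.9 to -23.1). The edge share was 21.0 points higher (11.5 to 30.0) and the share between regions 13.9 points higher (6.86 to 21.1). The inside and edge differences kept their sign in each H2Aub1 list alone, at -30.4 points (-36.7 to -23.9) and 29.2 points (21.5 to 36.4) in replicate 1 and at -15.7 points (-22.5 to -8.47) and 31.7 points (21.6 to 40.9) in replicate 2. The difference between regions did not. It was 6.13 points in replicate 1 (28.8% against 22.6%, interval -0.768 to 12.9) and turned to -6.77 points in replicate 2 (23.4% against 30.2%, -15.6 to 2.45). Both lists had been selected for touching H2Aub1 in the same way. A site's own width bears on whether it can lie inside. Among the 80 such RING1B regions under 1500 bp wide, 42 lay inside (52.5%, 41.7 to 63.1%) and 6 between (7.50%, 3.48 to 15.4%). The H2Aub1 regions on each side of the comparison differed in width too. Those with RING1B in both replicates and no EWSR1-FLI1 had a median of 4841 bp, against 2936 bp for the 229 regions. A wider region has more room for a whole site, and how much of the differences follows from this was not tested.

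Peak centres lay in H2Aub1 less often for EWSR1-FLI1 in each replicate taken alone. In replicate 1, 88 of 313 EWSR1-FLI1 peaks touching the mark had their centre in an H2Aub1 peak (28.1%), against 229 of 305 RING1B regions without EWSR1-FLI1 (75.1%, difference -47.0 points, -53.5 to -39.6). In replicate 2 the counts were 41 of 158 (25.9%) and 143 of 212 (67.5%, difference -41.5 points, -50.1 to -31.6). For RING1B regions under 1500 bp the shares were 61.9% and 54.4%, and the differences were -33.8 points (-43.7 to -22.9) and -28.5 points (-41.3 to -14.6). The width of the H2Aub1 regions bears on the centre shares as well, and its part was not tested. RING1B regions that did share EWSR1-FLI1 had 7 of 81 inside (8.64%, 4.25 to 16.8%) and 22 of 81 between (27.2%, 18.7 to 37.7%). Those 81 regions overlap EWSR1-FLI1 peaks by definition and are not independent of them.

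**Figure D2:**
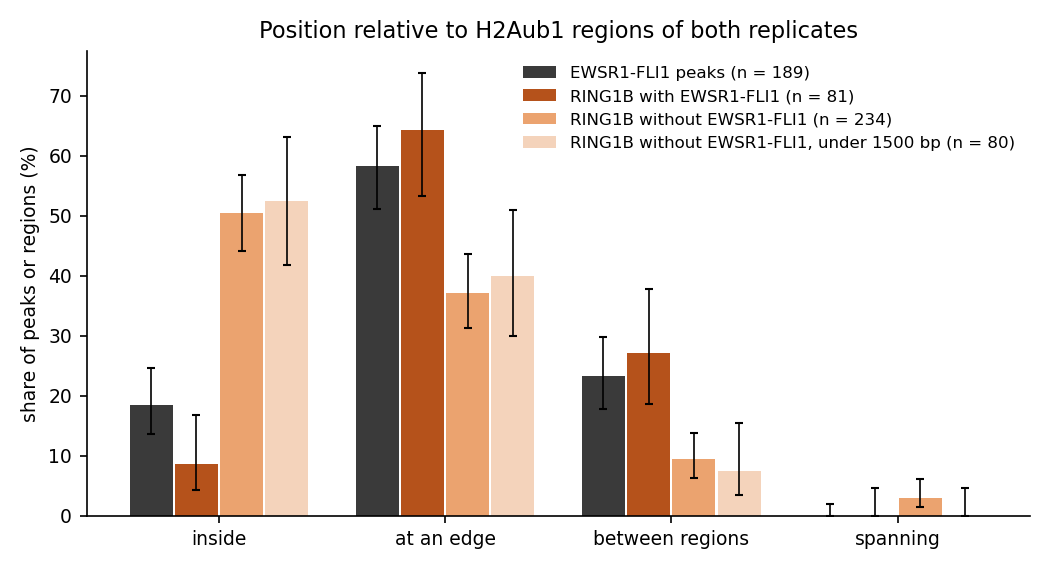
Share of EWSR1-FLI1 peaks and RING1B regions in each position (y axis, percent, bars with 95% Wilson intervals) among those touching an H2Aub1 region of both replicates. EWSR1-FLI1 peaks and RING1B regions with EWSR1-FLI1 are mostly at an edge, whereas about 50.4% of RING1B regions without EWSR1-FLI1 are inside.

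The breaks under EWSR1-FLI1 were short, as the class itself requires. A peak that touches 2 regions is wider than the break between them. The rule thus limits both the length of the break and its distance from the peak centre, and the values are descriptions. For the 44 peaks between 2 regions, the stretch free of H2Aub1 had a median of 138 bp, with quartiles of 72 and 344 bp and a range of 13 to 912 bp. It was under 200 bp in 26 cases and over 500 bp in 6. The centre of the break lay a median of 84.3 bp and at most 244 bp from the centre of the EWSR1-FLI1 peak. The peak centre itself lay in the break in 21 of the 44 cases (47.7%) and in an H2Aub1 region in 23 (52.3%). A median of 86.4% of each of these peaks lay in H2Aub1. In each list alone the breaks were wider, with medians of 294 bp (90 peaks, replicate 1) and 290 bp (37 peaks, replicate 2). Joining H2Aub1 peaks up to 1000 bp apart fills all such breaks by construction, and the inside share was then 70.0% and the share between regions 0%.

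Positions differed in part between the merged regions and each list alone. Of the 110 edge peaks, 78 were also at an edge in replicate 1 alone, 29 lay between 2 of its peaks and 3 touched none. In replicate 2 alone 72 were at an edge, 3 between and 35 touched no peak. Of the 44 peaks between regions, 41 also lay between 2 peaks of replicate 1 alone, 26 between 2 peaks of replicate 2 alone, and 23 in both. Of the 35 peaks inside a merged region, 30 were inside a peak of replicate 1 and 11 inside a peak of replicate 2, with 9 inside in both. Replicate 2 put 12 of the 35 at an edge and 8 between 2 of its peaks. With each list used alone the inside share was 9.58% (replicate 1) and 6.96% (replicate 2), below the 18.5% of the merged regions.

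Edge contacts often had more H2Aub1 on the far side. H2Aub1 of at least 1 replicate touched or lay within 5 kb of both ends in 93 of the 110 edge peaks (84.5%, 76.6 to 90.1%). For 38 of the 110 (34.5%) both sides had a region of both replicates. RING1B regions without EWSR1-FLI1 at an edge had H2Aub1 on both sides in 58 of 87 cases (66.7%, 56.2 to 75.7%). Counting all 3 positions, 172 of the 189 peaks (91.0%) had H2Aub1 of at least 1 replicate on both sides within 5 kb. This total includes the 35 inside and 44 between peaks, which have H2Aub1 on both sides by definition. With a region of both replicates asked for on both sides, it was 117 of the 189 (61.9%).

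A stretch of chromosome 6 (hg19) held 2 breaks and an inside peak side by side, and it had the highest EWSR1-FLI1 score among the 189 peaks. Scores are the authors' values, have a scale not stated in the labels or headers, and are compared only within a list. H2Aub1 regions ran from 15430454 to 15434520, from 15434725 to 15439886 and from 15440036 to 15441746. The middle one had H2Aub1 scores of 1952.12 and 752.27, at percentiles 99.6 and 99.1 of all H2Aub1 regions. An EWSR1-FLI1 peak of score 382.59 (15434311 to 15435319) lay over the first break of 204 bp, and another of score 599.51 (15439362 to 15440433) over the second break of 149 bp. A RING1B region covered each break, with scores of 205.11 and 188.12 at the first and 140.44 and 219.59 at the second. A weaker EWSR1-FLI1 peak (15432953 to 15433978, score 64.97) lay wholly inside the first region and had no RING1B peak.

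The other highest-scoring peaks between regions repeated the pattern at single sites. On chromosome 4 a peak from 183795108 to 183796043 (score 372.26) covered a break of 180 bp. On chromosome 16 a peak from 65004931 to 65005916 (score 362.43) covered 297 bp, and on chromosome 14 a peak from 91825720 to 91826626 (score 324.52) covered 360 bp. Each of these 3 had RING1B in both replicates.

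At an edge, the 5 highest scores belonged to peaks of which 21.0 to 33.8% lay in H2Aub1, and all 5 had RING1B in both replicates. Chromosome 11 had 2 of them, from 16022886 to 16024168 (score 569.59) and from 12744611 to 12745737 (score 506.92). Chromosome 5 also had 2, from 141736144 to 141737264 (score 555.85) and from 53951235 to 53952404 (score 474.68). The fifth lay on chromosome 16 from 65652576 to 65653535 (score 520.08). At the site on chromosome 11 with a score of 569.59, H2Aub1 began 265 bp from the EWSR1-FLI1 centre in replicate 1 and 218 bp in replicate 2, and the other side had no H2Aub1 peak within 8 kb. At the site on chromosome 5 with a score of 555.85 the borders lay at 182 and 287 bp.

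Inside an H2Aub1 region the highest score was below all 5 of these. It belonged to a peak on chromosome 6 (136154523 to 136155702, score 376.37) in a region of 18592 bp. Replicate 1 covered it with a single peak, whereas replicate 2 had a break from 73 bp before to 124 bp after the EWSR1-FLI1 centre. It was followed by peaks on chromosome 2 (25299105 to 25300232, score 316.27), chromosome 11 (8317497 to 8318449, score 227.53), chromosome 1 (227544442 to 227545358, score 200.66) and chromosome 16 (71187027 to 71188324, score 171.64). Of these 5 peaks only the first had RING1B in both replicates, and the other 4 had it in a single one.

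**Figure D3:**
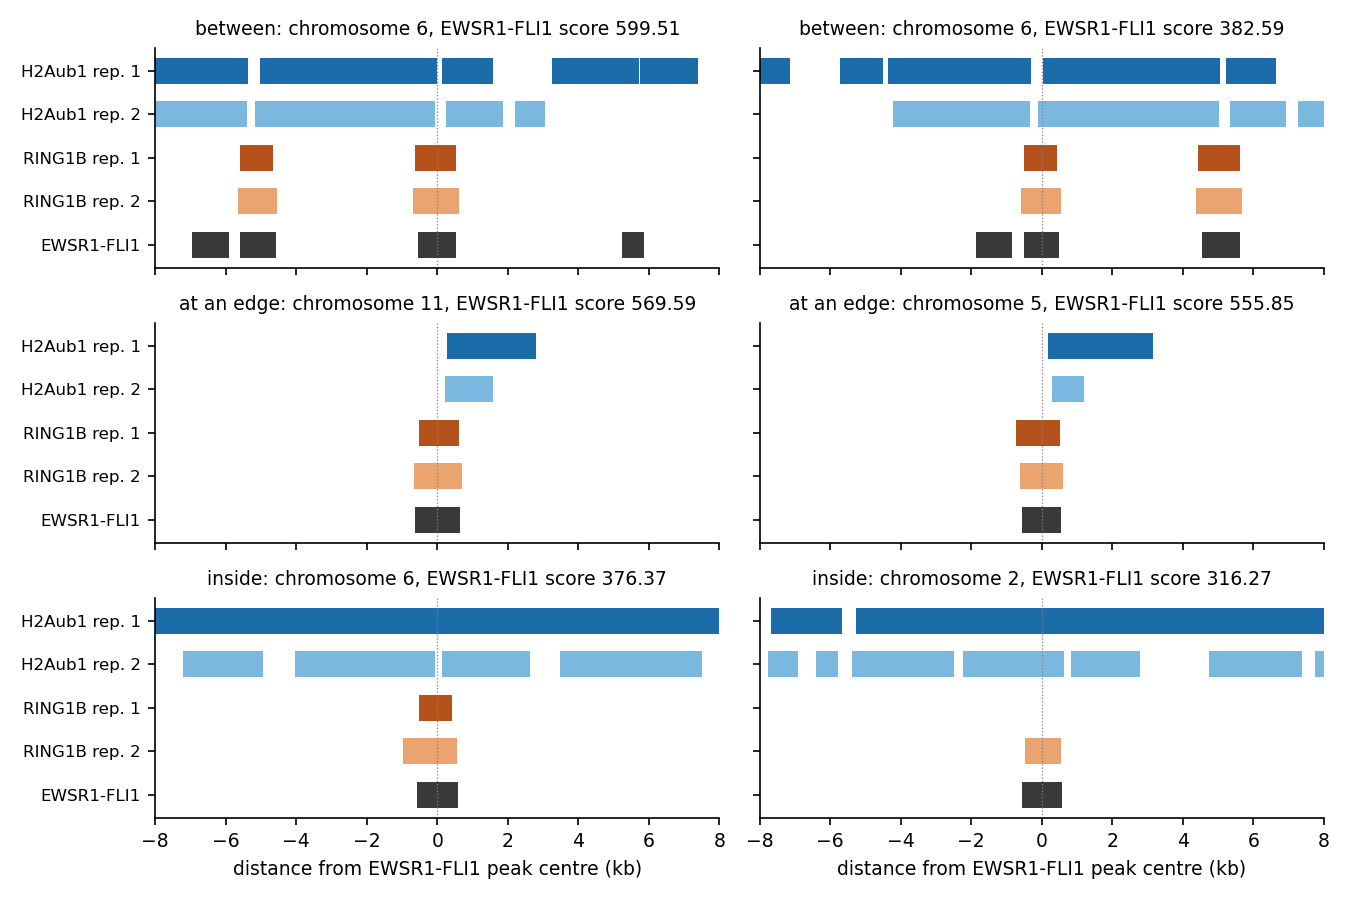
Peaks of the 5 lists (rows) around the 2 highest-scoring EWSR1-FLI1 peaks of each position, as distance from the EWSR1-FLI1 centre (x axis, kb). The upper panels show neighbouring peaks of chromosome 6 over breaks of 149 and 204 bp, the middle panels H2Aub1 on a single side, and the lower left panel a break in replicate 2 only.

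RING1B was present at 95 of the 229 H2Aub1 regions touching EWSR1-FLI1 when a RING1B region of both replicates was asked for (41.5%, 35.3 to 48.0%). The background over all 6408 H2Aub1 regions was 4.98%, and among the 6179 regions without EWSR1-FLI1 it was 224 (3.63%, 3.19 to 4.12%). The difference was 37.9 percentage points (31.7 to 44.3). With RING1B replicate 1 alone the shares were 50.7% and 4.69% (background 6.34%), and with replicate 2 alone 60.3% and 6.44% (background 8.36%). A RING1B peak of either replicate was present at 160 of the 229 (69.9%) and at 7.72% of the others (background 9.94%). Thus 95 regions had RING1B in both replicates, 65 in a single one and 69 in neither.

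This RING1B lay on the EWSR1-FLI1 peaks. In 95 of 95 cases the RING1B region overlapped a touching EWSR1-FLI1 peak. A RING1B region clear of any EWSR1-FLI1 peak was found in 2 of the 229 regions (0.873%, 0.240 to 3.13%), against 219 of the 6179 others (3.54%, 3.11 to 4.03%, difference -2.67 points, -3.47 to -0.375). This count drops RING1B regions on EWSR1-FLI1 peaks. All 229 regions have such a peak, whereas the others kept 219 of 224 regions with RING1B, so a lower share is partly built in. The RING1B profile was narrow, with peaks of replicate 1 at 50.8% and of replicate 2 at 59.8% of the EWSR1-FLI1 centres and at 0.794% and 1.59% of positions 1 kb away. Around the centres of the 234 RING1B regions without EWSR1-FLI1, RING1B still covered 40.2% and 39.1% of positions at that distance. The 2 sets are unlike. All 234 have RING1B by definition and 154 of them were at least 1500 bp wide. Of the 189 EWSR1-FLI1 peaks, 57 had no RING1B peak and 54 had it in 1 replicate.

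The RING1B share of these regions was also close to that of EWSR1-FLI1 peaks in general. Over the whole EWSR1-FLI1 list 41.8% of peaks had a RING1B region of both replicates. It was 78 of the 189 peaks that touched H2Aub1 (41.3%, 34.5 to 48.4%) and 819 of the 1956 that did not (41.9%, 39.7 to 44.1%).

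A wider region has more bases to be touched, so the comparison was repeated by width. Between 1 and 2 kb, 27 of 56 regions with EWSR1-FLI1 had RING1B (48.2%) against 1.43% of the others. Between 2 and 4 kb it was 35 of 94 (37.2%) against 2.59%, and over 4 kb 33 of 75 (44.0%) against 11.1%. The differences were 46.8, 34.6 and 32.9 points, with lower bounds of 34.2, 25.5 and 22.0. Only 4 regions with EWSR1-FLI1 were under 1 kb. Off the EWSR1-FLI1 peaks the order was the opposite over 4 kb, with RING1B at 2 of 75 regions (2.67%) against 126 of 1134 (11.1%, difference -8.44 points, -11.2 to -1.68). Below 4 kb the intervals of this second difference included 0. As above, dropping RING1B on EWSR1-FLI1 peaks partly builds in a lower share for the regions with EWSR1-FLI1.

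**Figure D4:**
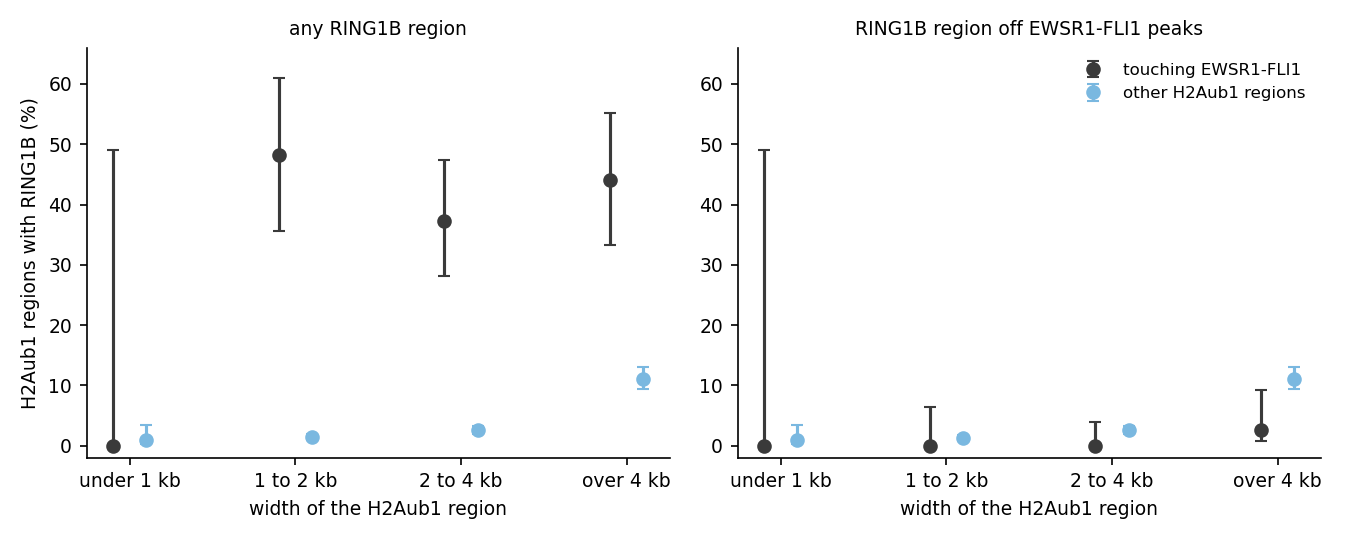
Share of H2Aub1 regions with a RING1B region of both replicates (y axis, percent, points with 95% Wilson intervals) by region width (x axis). With any RING1B region counted (left), regions touching EWSR1-FLI1 lie above the others in the 3 classes from 1 kb up, and with RING1B off EWSR1-FLI1 peaks (right) they lie at 0 to 2.67%.

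EWSR1-FLI1 scores differed with RING1B and with position. The 189 touching peaks had a median score of 97.43 (order-statistic 95% interval 89.02 to 121.37, range 50.04 to 599.51), near the 93.24 of the 1956 peaks without H2Aub1 (89.6 to 97.17). The latter reached up to 2117.51, so the strongest EWSR1-FLI1 peaks were not among those touching H2Aub1. Taking for each region its strongest EWSR1-FLI1 peak, the median score was 153.38 (135.58 to 192.99) for the 95 regions with RING1B in both replicates. It was 94.74 (83.02 to 122.95) for the 65 with RING1B in a single replicate and 78.33 (68.35 to 89.94) for the 69 with none.

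By position, the median score was 76.06 inside (66.28 to 89.94), 99.31 at an edge (89.02 to 124.1) and 151 between regions (94.74 to 178.69). RING1B in both replicates was found at 7 of 35 inside peaks (20%, 10.0 to 35.9%), 49 of 110 edge peaks (44.5%, 35.6 to 53.9%) and 22 of 44 between (50%, 35.8 to 64.2%). Scores and RING1B moved together in this comparison, and their separate parts were not tested. With RING1B in both replicates the median scores were 76.06 inside, 158.54 at an edge and 153.59 between, with 7, 49 and 22 peaks. With RING1B in a single replicate they were 100.91, 88.2 and 171.67 (17, 26 and 11 peaks). Without any RING1B peak they were 73.17, 79.87 and 70.3 (11, 35 and 11 peaks).

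**Figure D5:**
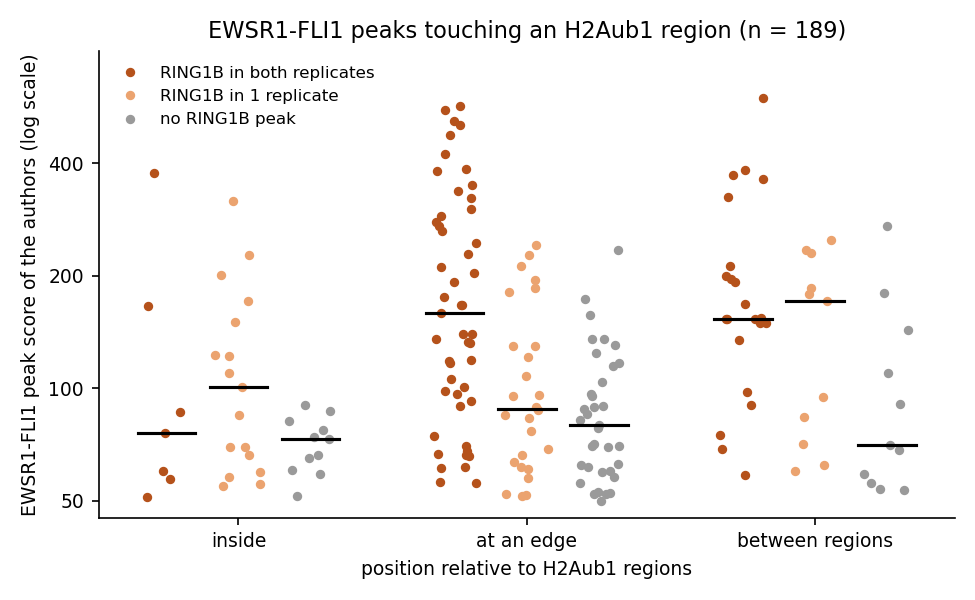
EWSR1-FLI1 score of the authors (y axis, log scale) for each of the 189 peaks by position (x axis) and RING1B (colour), with medians as black lines. Each of the 7 peaks over 400 has RING1B in both replicates and lies at an edge or between regions, and grey peaks without RING1B have medians from 70.3 to 79.87 in every position.

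The low H2Aub1 share at the centre was seen with and without RING1B. Replicate 1 covered the centre of 22 of 78 EWSR1-FLI1 peaks with RING1B in both replicates (28.2%, 19.4 to 39.0%), 24 of 54 with RING1B in 1 replicate (44.4%, 32.0 to 57.6%) and 24 of 57 with none (42.1%, 30.2 to 55.0%). For replicate 2 the shares were 14.1%, 24.1% and 28.1%. At 1 kb they were 80.8%, 83.3% and 83.3% in replicate 1 and 64.1%, 61.1% and 57.9% in replicate 2. For peaks at or above the median score the centre was covered in 27.4% (19.4 to 37.1%) against 46.8% (37.0 to 56.8%) below the median in replicate 1. In replicate 2 it was 15.8% (9.81 to 24.4%) against 26.6% (18.7 to 36.3%). The intervals overlapped in both replicates, barely so in replicate 1, and the difference was not tested.

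The 229 regions were wider and scored higher than other H2Aub1 regions. Their median width of 2936 bp (2626 to 3307) compared with 2170 bp (2130 to 2213), and 75 of them (32.8%) exceeded 4 kb against 18.4% of the others. The range was 713 to 22852 bp. Width is tied to the selection, since a wider region has more bases to be touched, so the difference has no test. Median H2Aub1 scores were 313.76 against 192.73 in replicate 1 and 123.3 against 90.01 in replicate 2. Scores rose with width (Spearman rho = 0.855 over the 229 regions in replicate 1, as a description). Within width classes the gap in replicate 1 was smaller. It was 126.52 against 112.94 between 1 and 2 kb, 306.95 against 267.98 between 2 and 4 kb and 735.47 against 647.86 over 4 kb. In replicate 2 these were 86.53 against 72.77, 113.12 against 102.44 and 269.82 against 194.76. There the gap was smaller between 1 and 4 kb but not over 4 kb.

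The position of EWSR1-FLI1 went with the kind of H2Aub1 region. Regions holding an inside peak were the widest, with a median of 6713 bp (34 regions) and median scores of 807 and 216. Regions flanking a break had a median of 3394 bp (87 regions, 445 and 184), and regions touched at an edge 2207 bp (108 regions, 183 and 91.9). A wider region has more room for a whole peak, so width and position are not independent. H2Aub1 and EWSR1-FLI1 scores showed little relation across the 229 regions (Spearman rho = -0.0996 in replicate 1 and -0.0580 in replicate 2, descriptions over scores of different libraries).

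The strongest H2Aub1 regions among the 229 were broad, and in 7 of the first 10 the EWSR1-FLI1 score was under the median of 97.43 given above. After the chromosome 6 region described above came chromosome 7 (135394128 to 135401474, H2Aub1 scores 1774.32 and 886.1, EWSR1-FLI1 score 90.1) and chromosome 15 (78957860 to 78980711, 1720.83 and 865.79, EWSR1-FLI1 score 86.93), which was also the widest at 22852 bp. Next were chromosome 17 (10669397 to 10676463, EWSR1-FLI1 score 234.98) and chromosome 1 (113329707 to 113335315, 51.06). Chromosome 10 had a pair, from 35072469 to 35079077 (68.85) and from 134606107 to 134613870 (81.72). Chromosome 14 (76773490 to 76787394, 57.73), chromosome 21 (43845565 to 43851829, 178.69) and chromosome 15 (70918566 to 70926994, 66.29) completed the first 10. EWSR1-FLI1 lay inside 5 of these 10 and between regions at the other 5, and 4 of the 10 had RING1B in both replicates.

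The 10 regions whose EWSR1-FLI1 peak scored highest shared 1 region with that set. All 10 had RING1B in both replicates, 7 were touched at an edge and 3 flanked a break. The set holds the 3 regions of the chromosome 6 stretch and the 5 regions at the edge peaks named above. The remaining 2 lay on chromosome 1, from 90533175 to 90534483 (EWSR1-FLI1 score 422.23, H2Aub1 scores 50.62 and 67.79) and from 170463721 to 170468106 (386.56, with 508.98 and 116.45). The first of these also had the highest RING1B rank of the 229, with RING1B scores of 415.8 and 391.89. Next in RING1B rank came the region from 141736886 to 141739863 on chromosome 5, with RING1B scores of 316.81 and 321.01. Chromosome 9 followed (29625452 to 29627204) with 534.47 and 213.08, then chromosome 8 (8727580 to 8729756) with 237.01 and 352.45. The fifth was the chromosome 11 region from 16023745 to 16026319, with 214.94 and 241.78. EWSR1-FLI1 lay at the edge of all 5.

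The other wide regions were on chromosome 6 (136146988 to 136165579), chromosome 7 (27973620 to 27991400, 17781 bp, EWSR1-FLI1 score 153.38), chromosome 2 (25294283 to 25308487, 14205 bp, 316.27) and chromosome 20 (47098186 to 47112370, 14185 bp, 121.97). In 4 of the 5 widest the EWSR1-FLI1 peak lay inside, and 2 of them had RING1B in both replicates.

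Another H2Aub1 region lay within 1 kb of 123 of the 229 regions (53.7%, 47.2 to 60.1%), against 28.0% of the others (26.9 to 29.2%). Most of this came from the 87 regions that flank a break and so have a close neighbour by definition. Among the other 142 regions it was 36 (25.4%, 18.9 to 33.1%).

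Along chromosomes the 229 regions stood between H2Aub1 and EWSR1-FLI1. The outer 10 Mb at either chromosome end held 46 of them (20.1%, 15.4 to 25.8%), against 38.5% of the other H2Aub1 regions (37.3 to 39.7%) and 12.2% of EWSR1-FLI1 peaks without H2Aub1 (10.8 to 13.7%). Regions with RING1B in both replicates had 14.7% there (8.99 to 23.2%), and those without any RING1B peak 27.5% (18.4 to 39.0%). By chromosome, the share of H2Aub1 regions touching EWSR1-FLI1 ran from 0.766% on chromosome 19 (2 of 261) to 8.16% on chromosome 5 (16 of 196), and chromosome X had 4 of 341 (1.17%).

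The 1 bp rule had few close cases. The shared stretch had a median of 429 bp, or 13.7% of the region, and 6 of the 229 regions shared under 50 bp. The smallest overlaps were 9, 15 and 23 bp. Just outside the rule, 7 regions ended within 50 bp of an EWSR1-FLI1 peak, the nearest at 2, 8 and 14 bp, and 72 lay within 1 kb.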

How the data were processed

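Per the submitters' processing notes, reads were handled with Bowtie (version not given in the sources used here) and hg19, with mm9 also named for the RING1B and H2Aub1 samples for a use that is not given. Peak names begin with MACS, per the deposited files. Use of input and filters is not stated in the labels. Each deposited list has 1 score of the authors per peak, used only within its list. Peaks were called per sample, with no pooled list.

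Coordinates are hg19, 1-based. Regions were merged and overlapped at 1 bp or more in Python 3.11.15 (SciPy 1.17.1, statsmodels 0.14.6). Chromosome lengths came from pyranges 0.1.4, and 0 peaks lay beyond a chromosome end. Shares have 95% Wilson intervals, differences of shares Newcombe intervals, medians order-statistic intervals. No p-values were computed, since regions are not replicates. The code for the position classes was run on simulated data without spanning peaks, where 1000 of 1000 planted peaks were classed as planted. That run tests the code, not how well the replicates agree in these data. Named regions are the 10 with the highest EWSR1-FLI1 score, the 10 with the highest H2Aub1 rank, the 5 widest, the 5 with the highest RING1B rank and the 5 highest-scoring peaks of each position. Members and lists were chosen with earlier results of these data known. Alternatives varied the overlap, score, replicate, gap and chromosome choices. An hg19 genome and annotation were not used here, so regions carry no gene names or sequence.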

Additional observations from a re-analysis of the deposited data

How the results depend on the processing

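Of 68 recomputed values for 9 results under 13 alternatives, 27 stayed within the main 95% interval (counts: within 1.5 times), 40 moved beyond it and 1 changed sign. That was the difference between EWSR1-FLI1 peaks and RING1B regions without EWSR1-FLI1 in the share between regions, 13.9 points with both H2Aub1 replicates, 6.13 without replicate 2 and -6.77 without replicate 1. The inside difference ranged from -30.4 to -15.7 and the edge difference from 29.2 to 31.7 with 1 H2Aub1 replicate left out. These 3 comparisons were added after seeing the data, and the cause was not tested. Leaving out chromosome 11 or the sex chromosomes moved none, and the RING1B union enters only the results on RING1B shares. The number of regions was 80 with at least 50% of the shorter region shared, 12 with centres within 500 bp, 91 when only the upper 50% of scores in each list entered, and 417 for the union of H2Aub1 replicates, and 192 to 399 with 1 H2Aub1 replicate left out. In the same order, the share with RING1B was 26.3%, 8.33%, 33.0% and, unmoved, 37.9%. It was 69.9% for the union of RING1B replicates and 37.3 to 60.3% with 1 replicate left out. The excess over other H2Aub1 regions was 23.5, 7.68, 28.8 and 62.1 points under the 50% rule, the centre rule, the highest scores and the RING1B union, and 36.0 to 53.8 with 1 replicate left out. With the replicate block, in which RING1B and H2Aub1 were paired by number and had to overlap in each pair, the share was 30.6% and the excess 27.6 points. The share of peaks between regions was 0% under both stricter overlap rules and with gaps of 1000 bp joined, 31.4% for the highest scores, 29.9% for the H2Aub1 union and 23.4 to 28.8% with 1 replicate left out. A peak can hardly meet either stricter rule with 2 regions, so the zeros follow from the rules. The inside share was 43.8%, 83.3%, 12.9%, 10.8% and 70.0% under the 50% rule, the centre rule, the highest scores, the union and joined gaps, and 6.96 to 9.58% with 1 replicate left out. The median width was 3855, 3607, 1794 and 6033 bp under the 50% rule, the centre rule, the union and joined gaps, and 1575 to 1750 bp with 1 replicate left out. Depth is unknown, so a missing H2Aub1 or RING1B peak is not evidence of absence.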

Other observations

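Short breaks between H2Aub1 regions mostly had no EWSR1-FLI1. Of 1046 breaks of at most 1000 bp between neighbouring H2Aub1 regions of both replicates, 52 held an EWSR1-FLI1 peak (4.97%, Wilson interval 3.81 to 6.46%) and 51 a RING1B region (4.88%), of which 25 had no EWSR1-FLI1 peak in the break. In the lists alone, 127 of 6705 breaks in replicate 1 (1.89%) and 55 of 2098 in replicate 2 (2.62%) held EWSR1-FLI1.

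A further 135 of the 1956 EWSR1-FLI1 peaks off the H2Aub1 regions of both replicates (6.90%) touched an H2Aub1 peak seen in a single replicate. Another 91 of the 1956 (4.65%) lay within 5 kb of an H2Aub1 region of both replicates on at least 1 side; these counts can overlap.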
